A study of Mus musculus with 8 samples.

Results

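The transcription factors that set up and maintain the hepatocyte programme were followed as 8 genes chosen by name: Foxa1, Foxa2, Foxa3, Hnf4a, Cebpa, Onecut1, Onecut2 and Prox1. All 8 were among the 34945 genes with a symbol in the deposited table and among the 14154 genes tested. Poly-A RNA came from AML12, a mouse hepatocyte line derived from TGF-alpha transgenic liver, and a single line limits how far it stands for liver. The control cultures (Scr, n = 4) were transfected with a scrambled siRNA and the knockdown cultures (siCasp8, n = 4) with Casp8 siRNAs, each at 40 nM for 48 hours, and no other agent or allele separated the groups. The Scr cultures carry the genotype label WT and the siCasp8 cultures the label Casp8 knockdown. The design text calls the 4 cultures of a group biological replicates, without saying how they were separated. The sources used here give no siRNA sequences, so loss of Casp8 and any other effect of those siRNAs cannot be told apart.

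Foxa proteins are forkhead factors that can bind closed chromatin and open liver enhancers for other factors. Hnf4a, a nuclear receptor, and Cebpa, a leucine zipper factor, bind many of the same enhancers and drive genes of plasma proteins, lipid transport and glucose production. Onecut factors act in liver and bile duct development, and Prox1, a homeobox factor, takes part in hepatoblast migration and acts as a cofactor of nuclear receptors. The comparison asked whether these regulators were higher in the cultures in which genes they are known to drive were higher.

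Values are gene-level estimates normalized by the authors, and estimated depth was 30.7 to 51.8 M reads in the Scr libraries and 50.5 to 57.1 M reads in the siCasp8 libraries. Casp8 itself was 3825 to 4134 in Scr and 1374 to 1627 in siCasp8, or 37.3% of Scr in the mean. Hepatocyte genes were present only in part in these libraries. Of 60 listed genes that these factors are known to drive, 34 had a mean of at least 10 and 26 did not. Apob (26046 ± 1567 in Scr, SD, n = 4) and Trf (17025 ± 365) were among the abundant ones. The plasma protein genes Ahsg and Apoa4 and the bile acid carrier gene Slco1b2 were listed at 0 in all 8 libraries, and the urea cycle gene Cps1 averaged 0.963 ± 1.17 in Scr (SD, n = 4) and 1.64 ± 0.637 in siCasp8 (SD, n = 4).

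Of the 8 factors, 4 were higher in siCasp8 (Foxa3, Onecut2, Cebpa and Prox1), 1 was lower (Foxa1) and 3 were not called (Hnf4a, Foxa2 and Onecut1). A gene was called at a Benjamini-Hochberg adjusted p under 0.05 in limma's test over all tested genes. That test called 40.2% of all tested genes, 19.4% higher and 20.8% lower, so 5 of 8 called stands beside a background of 40.2%. The groups did not overlap for 6 of the 8 factors (the 5 called ones and Onecut1) and for 37.5% of all tested genes. The 8 log2 fold changes ran from -0.63 to 0.71, and their median was 0.20 against a median of 0.0025 over all tested genes. In bulk RNA, fewer cells that express a factor and less of its RNA per cell cannot be told apart.

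**Figure D1:**
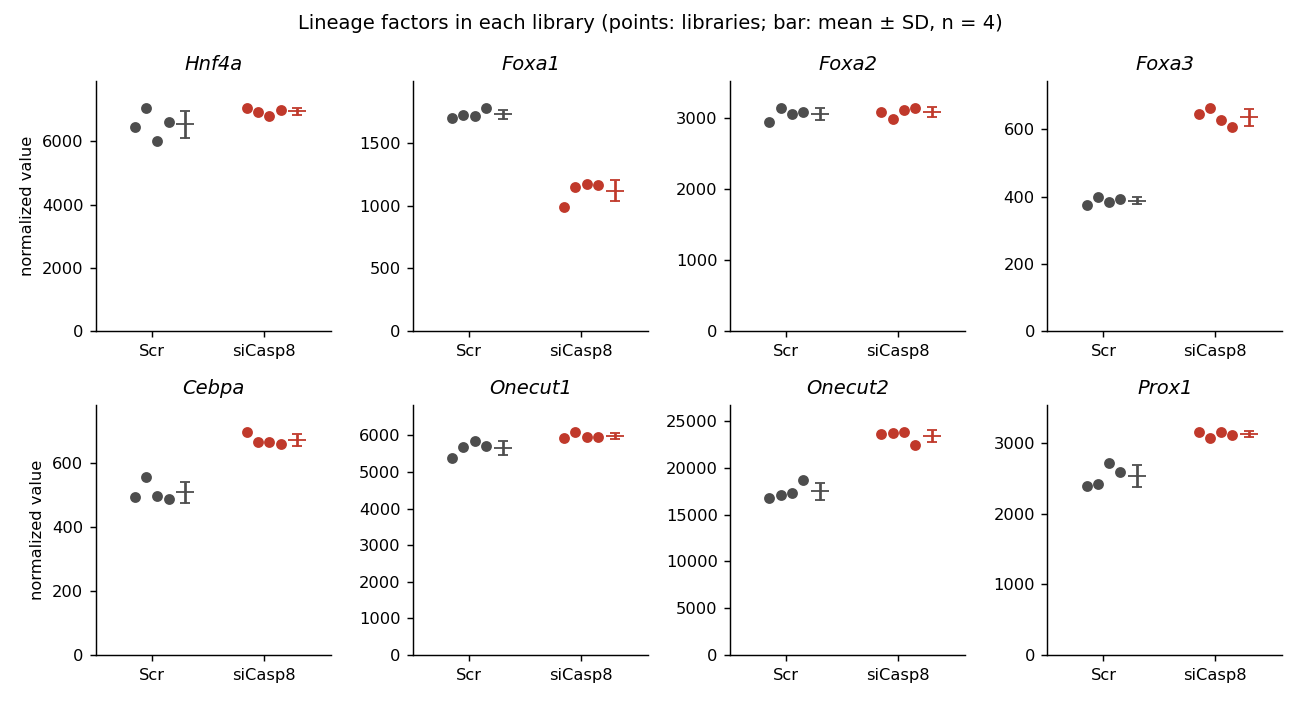
Normalized value of each lineage factor in every library, with the axis from 0, 4 Scr libraries in grey and 4 siCasp8 libraries in red, and the mean ± SD beside the points. Foxa1 is lower in all 4 siCasp8 libraries, Foxa3, Cebpa, Onecut2 and Prox1 are higher in all 4, and the Hnf4a and Foxa2 points overlap.

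Of the Foxa family, Foxa1 fell, Foxa3 rose and Foxa2 was not called. Foxa1 had values of 1699, 1718, 1712 and 1778 in Scr replicates 1 to 4 and of 992, 1146, 1174 and 1166 in siCasp8 replicates 1 to 4. Every siCasp8 library was below every Scr library, and siCasp8 replicate 1 was the lowest of all. The mean fell from 1726 ± 35.0 to 1119 ± 85.9 (SD, n = 4 each), which is 64.8% of the Scr level, with a log2 fold change of -0.63 (SE 0.0575, limma adjusted p = 3.66e-06). Foxa3, the smallest of the family in Scr, had values of 374, 398, 385 and 392.5 in Scr and of 645, 664, 628 and 606 in siCasp8. The lowest siCasp8 value was well above the highest Scr value. The mean rose from 387 ± 10.4 to 635 ± 24.8, a log2 fold change of 0.71 (SE 0.0617, limma adjusted p = 2.38e-06). This absolute change was at the 92.6th percentile of all tested genes, and that of Foxa1 at the 90.9th.

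Foxa2, which acts with Foxa1 in specifying liver from foregut endoderm, did not separate the groups. Its values were 2941, 3143, 3055 and 3085 in Scr and 3093, 2988, 3117 and 3147 in siCasp8. The ranges of the groups overlap almost completely. The log2 fold change was 0.01 (SE 0.0371, 95% interval -0.07 to 0.10, limma adjusted p = 0.794).

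Because Foxa proteins bind the same DNA word, the sum over the family was also examined, a quantity chosen after these values had been seen and given as a description. Divided by the length of the longest coding transcript, the 3 genes together summed to 2098 to 2211 per kilobase in the Scr libraries and to 2081 to 2141 in the siCasp8 libraries. The mean sum in siCasp8 was 0.975 times that in Scr. Within that sum the share of Foxa1 went from 24.97% ± 0.481 to 16.6% ± 1.11, and the share of Foxa3 from 8.77% ± 0.0446 to 14.8% ± 0.776 (SD, n = 4 each). Foxa2 held 66.3% ± 0.447 of it in Scr and 68.6% ± 1.11 in siCasp8. The ranges of the Foxa sum per kilobase overlapped between the groups, while those of the Foxa1, Foxa2 and Foxa3 shares did not. Without division by length, the sum of the 3 values was lower in every siCasp8 library than in any Scr library. Per kilobase, mean Foxa1 went from 541 to 351 and mean Foxa3 from 190 to 312, so Foxa3 rose by less than Foxa1 fell. The Foxa2 share separated although the values of Foxa2 itself overlapped, and such shares have no background over all genes. Summed likewise, Onecut1 and Onecut2 came to 2391 to 2598 per kilobase in Scr and 2887 to 3006 in siCasp8, without overlap. The mean sum in siCasp8 was 1.18 times that in Scr for these Onecut genes. It was 0.978 times for Cebpa, Cebpb, Cebpd and Cebpg together.

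**Figure D2:**
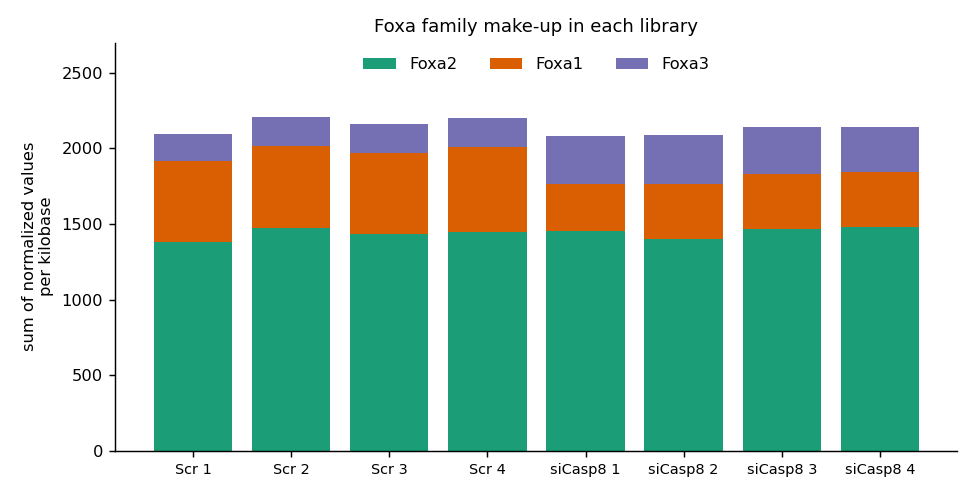
Sum of normalized values per kilobase of the longest coding transcript for Foxa2, Foxa1 and Foxa3, stacked for each of the 8 libraries with the axis from 0. The stacks lie between 2081 and 2211 in both groups, while the Foxa1 band is thinner and the Foxa3 band thicker in the 4 siCasp8 libraries.

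The upstream sequences of the 3 Foxa genes are shown because the 3 went different ways. They come from RefSeq (GRCm38.p6), run 5′ to 3′ on the gene's strand and end at the RefSeq start, or at the first annotated exon where that begins earlier. The Foxa1 stretch is chr12:57546122-57546361, minus strand, upstream of the coding transcript and in an intron of a longer annotated transcript of the gene. The Foxa3 stretch is chr7:19023540-19023789, minus strand, and the Foxa2 stretch, at the first of 3 RefSeq starts, is chr2:148046970-148047219, minus strand. Capitals mark the forkhead word TGTTTAC (read as GTAAACA on the other strand) and the Onecut word TATTGAT.
Foxa1: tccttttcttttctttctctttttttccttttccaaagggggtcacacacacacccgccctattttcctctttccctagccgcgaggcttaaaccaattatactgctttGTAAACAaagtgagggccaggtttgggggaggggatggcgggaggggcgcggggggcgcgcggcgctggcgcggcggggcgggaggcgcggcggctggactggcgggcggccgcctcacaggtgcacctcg
Foxa3: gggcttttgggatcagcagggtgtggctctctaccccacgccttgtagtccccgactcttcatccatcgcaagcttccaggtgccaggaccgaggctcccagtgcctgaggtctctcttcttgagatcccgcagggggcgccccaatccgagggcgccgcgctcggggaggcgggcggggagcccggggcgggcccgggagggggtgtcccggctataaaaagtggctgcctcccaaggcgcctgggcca
Foxa2: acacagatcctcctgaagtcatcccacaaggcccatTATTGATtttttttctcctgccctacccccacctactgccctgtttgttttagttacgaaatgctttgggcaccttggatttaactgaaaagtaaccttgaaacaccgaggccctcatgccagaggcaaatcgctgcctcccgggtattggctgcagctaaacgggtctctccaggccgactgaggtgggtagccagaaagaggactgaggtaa

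The forkhead word stood 141 to 135 bases before the Foxa1 start on the other strand and was found in 1 of 7 factors with a RefSeq entry and in 3.54% of 27025 genes, when the 250 bases before every start were searched on both strands. The Onecut word stood 214 to 208 bases before the Foxa2 start, and it was found in 2 of the 7 factors, Foxa2 and Hnf4a, and in 2.14% of genes. None of the words CAAAGTCCA and CAAAGGTCA (Hnf4), TTGCGCAA and TTGCNNAA (C/EBP) and TATCGAT (Onecut) occurred in a window of the 7 factors. TTGCNNAA, the most frequent of these words, takes in every TTGCGCAA and occurred in 10.8% of genes. Onecut2 had no entry. The Foxa1 and Foxa3 windows were 62.0% and 68.8% G and C, against a median of 52.4% over 32851 windows, and the 3 Foxa2 windows were 50.8% (the one shown), 67.2% and 54.4%.

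Hnf4a, the central nuclear receptor of the network, was not called. Its values were 6454, 7059, 6017 and 6609 in Scr and 7058, 6932, 6805 and 6983 in siCasp8. Scr replicate 2 was the highest library of all, so the groups overlapped, and Scr replicate 3 was the lowest. The mean was 6535 ± 430 in Scr and 6944 ± 106 in siCasp8, a log2 fold change of 0.09 (SE 0.0447, 95% interval -0.01 to 0.19, limma adjusted p = 0.132). The Hnf4a log2 fold change was called without Scr replicate 2 (0.13, limma adjusted p = 0.0231) and after quantile normalization (0.14, limma adjusted p = 0.0206). The table gives 1 value per gene, so RNA from the upstream and the downstream Hnf4a promoter cannot be told apart, and reads of the annotated antisense genes over Hnf4a, Cebpa and Prox1 cannot be told apart from theirs, since use of strand is not stated.

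The stretch upstream of the first RefSeq start of Hnf4a (chr2:163506607-163506807, plus strand, GRCm38.p6) is shown because it holds the Onecut word, in capitals. The word is read on the other strand, 59 to 53 bases before that start. The stretch stops short of that start, where an annotated exon of Hnf4a begins.
Hnf4a: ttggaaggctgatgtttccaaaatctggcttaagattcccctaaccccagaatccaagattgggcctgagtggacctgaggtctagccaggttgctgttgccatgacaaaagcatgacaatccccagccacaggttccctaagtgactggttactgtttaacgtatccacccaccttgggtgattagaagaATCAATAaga

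Cebpa, which restrains proliferation and drives genes of glucose and nitrogen metabolism in liver, was higher. Its values were 494, 557, 498 and 488 in Scr and 700, 666, 667 and 662 in siCasp8. All 4 siCasp8 libraries lay above the Scr libraries. The mean rose from 509 ± 32.2 to 673 ± 17.7, a log2 fold change of 0.40 (SE 0.0631, limma adjusted p = 0.000271).

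Of the Onecut pair, only Onecut2 was called. Onecut2 had values of 16776, 17084, 17263 and 18726 in Scr and of 23578, 23736, 23870 and 22379 in siCasp8, with no overlap. Its mean rose from 17463 ± 866 to 23391 ± 685, a log2 fold change of 0.42 (SE 0.0397, limma adjusted p = 4.58e-06). Onecut1, known as the first liver member of the pair, had values of 5374, 5686, 5855 and 5717 in Scr and of 5927, 6108, 5962 and 5969 in siCasp8. All 4 siCasp8 values were above all Scr values, but by little. The Onecut1 log2 fold change was 0.08 (SE 0.0351, 95% interval 0.01 to 0.16, limma adjusted p = 0.0784). It was called without Scr replicate 3 (0.10, limma adjusted p = 0.0417), after quantile normalization (0.13, limma adjusted p = 0.0136) and after upper quartile rescaling, while with estimated depth as a covariate it was 0.04 (limma adjusted p = 0.647). An annotated noncoding gene lies over most of Onecut1 on the same strand.

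Prox1 was higher by the least of the 4. Its values were 2403, 2428, 2727 and 2600 in Scr and 3169, 3080, 3160 and 3124 in siCasp8, again with no overlap. The mean rose from 2539 ± 153 to 3133 ± 40.6, a log2 fold change of 0.30 (SE 0.0451, limma adjusted p = 0.000183). Prox1 also marks lymphatic endothelium. The endothelial genes Cdh5 and Lyve1 were listed at 0 in all libraries, Pecam1 was 304 ± 161 in Scr and 224 ± 53.1 in siCasp8, and Flt4 was 748 ± 82.5 and 620 ± 40.2 (log2 fold change -0.27, limma adjusted p = 0.0227). The Flt4 log2 fold change lost its call after upper quartile rescaling (limma adjusted p = 0.119), with the depth covariate (0.433) and without Scr replicate 1 or 2 or siCasp8 replicate 1, 2 or 3 (0.0506 to 0.0651). The 10 endothelial markers summed to 855 to 1349 in Scr and 800 to 905 in siCasp8. The exact two-sided permutation p over the 70 arrangements of the 8 libraries was 0.0286, the smallest possible, for each of the 6 factors without overlap, 0.143 for Hnf4a and 0.571 for Foxa2.

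**Figure D3:**
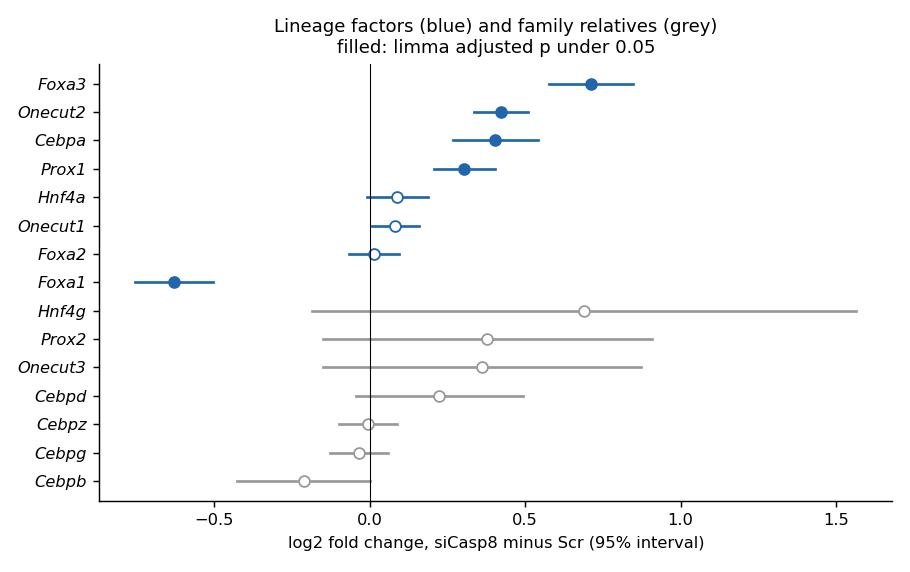
Log2 fold change of siCasp8 minus Scr with its 95% interval for the 8 lineage factors (blue) and the 7 tested family relatives (grey), filled where limma's adjusted p is under 0.05. Foxa3 is highest at 0.71 and Foxa1 lowest at -0.63, and all 7 relatives are open circles.

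With each library rescaled to a common upper quartile, which shifted the median of all genes to 0.10, the 3 uncalled factors were called higher as well: Hnf4a by 0.19 (limma adjusted p = 0.00606), Onecut1 by 0.18 (0.00445) and Foxa2 by 0.12 (0.0481). Counts under that scaling were 7 factors higher and 1 lower, beside 4471 of all genes called higher and 1665 of all genes called lower. Foxa1 stayed lower there by 0.53. With estimated depth as a covariate the 5 calls were kept, and the adjusted p of Prox1 was then 0.0348.

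Levels of different genes were compared per kilobase of the longest annotated coding transcript. In Scr, Hnf4a (1498 ± 98.6 per kilobase), Foxa2 (1436 ± 40.0) and Onecut1 (1430 ± 51.4) came first and, at this length, did not differ beyond their spread. Onecut2 followed at 1076 ± 53.4, since its transcript of 16234 bases accounts for much of its high value per gene. Foxa1 at 541 ± 10.96 and Prox1 at 321 ± 19.3 stood apart from their neighbours. Cebpa at 194 ± 12.3 and Foxa3 at 190 ± 5.11 were lowest and overlapped.

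In siCasp8 the order changed where the called factors moved. Onecut2 reached 1441 ± 42.2 per kilobase and overlapped with Foxa2 at 1450 ± 32.4. Prox1 at 396 ± 5.13 was above Foxa1 at 351 ± 26.9 in every library, the reverse of Scr, and Foxa3 at 312 ± 12.2 overlapped with Foxa1. Cebpa at 256 ± 6.73 was now lowest. With the mean length of the coding transcripts in place of the longest, Hnf4a came to 2656 per kilobase, Foxa2 to 1811 and Prox1 to 531 in Scr. Onecut1 stayed at 1430, so the Scr ranges of Hnf4a, Foxa2 and Onecut1 no longer overlapped. Prox1 then overlapped with Foxa1.

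**Figure D4:**
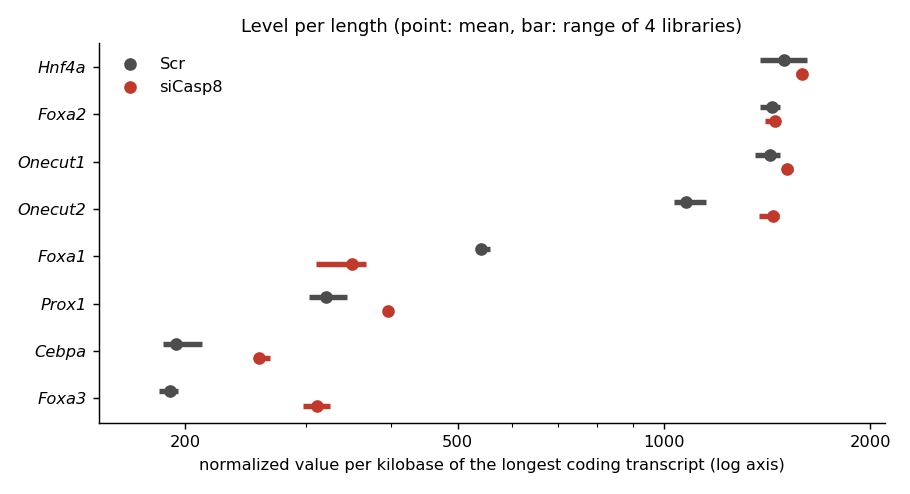
Normalized value per kilobase of the longest coding transcript on a log axis, with the mean as a point and the range of the 4 libraries of a group as a bar. Hnf4a, Foxa2 and Onecut1 lie together near 1430 to 1498 in Scr, and Foxa1 drops below Prox1 in siCasp8.

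Of the family relatives, none of the 7 tested was called, beside 40.2% of all tested genes, and Cebpe was listed at 0 throughout. Cebpb, the C/EBP gene of the acute phase and of regeneration, was 1211 ± 98.8 in Scr and 1052 ± 166 in siCasp8 (log2 fold change -0.21, limma adjusted p = 0.106, and 0.0126 without siCasp8 replicate 3). Cebpd was 466 ± 78.4 and 541 ± 63.9, and the Cebpd log2 fold change was called after upper quartile rescaling (0.32, limma adjusted p = 0.0432). Cebpg was 3650 ± 179 and 3564 ± 105. Cebpz, which lacks the leucine zipper of the family, was 4018 ± 203 and 4003 ± 111. Hnf4g (8.37 ± 3.78 and 13.0 ± 1.75), Onecut3 (21.1 ± 3.15 and 27.5 ± 5.12) and Prox2 (80.9 ± 31.7 and 101 ± 16.0) were low.

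Genes whose log2 values over the 8 libraries were most like those of a factor were found by Pearson's r among 11379 genes with a mean of at least 50. Since the libraries form 2 groups, r follows the group difference for the called factors. Foxa3 was most like Sord, a polyol pathway enzyme, and Abca6, a lipid transporter (r = 0.998 each), and Foxa1 most like Zfp36l1, an RNA decay factor, and Ppib, a cyclophilin of the endoplasmic reticulum (0.995 and 0.994). Cebpa was most like Plin3 and Fam174a (0.995 and 0.994), Onecut2 like Ctso and Apcs (0.994 and 0.993), and Prox1 like Dusp19 and Sugct (0.998 and 0.994). Between 7.76% and 12.1% of the genes compared had r over 0.9 with each of the 5 called factors. For the uncalled factors these shares were 0.0703% for Foxa2, 0.896% for Hnf4a and 1.73% for Onecut1. Their nearest genes were Swsap1 and Fkbp4 (0.947 and 0.918) for Foxa2, Rplp0 and Abhd17a (0.977 and 0.976) for Hnf4a, and Utp3 and Zfp974 (0.994 and 0.988) for Onecut1.

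Other factors of the hepatocyte programme, a list of 46 of which 41 were tested, held 15 that were higher and 8 that were lower, and their median on the log2 scale was 0.03. As shares these are 36.6% and 19.5%, beside 19.4% and 20.8% of all tested genes. With estimated depth as a covariate they were 10 and 4, and after upper quartile rescaling 19 and 5. The counts over all genes also moved under these settings and are given in the closing section. The shares above are therefore not the background of these counts. The nuclear receptor gene Esrra rose from 2676 ± 144 to 3633 ± 317 (0.44).

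Among the same list, Tcf7l2, a Wnt effector, rose from 3326 ± 154 to 4530 ± 180 (log2 fold change 0.45, limma adjusted p = 6.66e-06). Foxo1, the insulin-controlled forkhead factor, rose by 0.37, and Xbp1, a factor of secretory capacity, by 0.25. Cux2, which shares the cut domain with the Onecut factors, rose from 50.5 ± 13.3 to 127 ± 6.81 (1.36). The clock output factor Dbp rose from 251 ± 20.7 to 398 ± 31.7 (0.66), while Nfil3, which binds the same sites as a repressor, fell from 1045 ± 20.9 to 628 ± 27.3 (-0.74). The proliferation factor Foxm1 fell from 3143 ± 288 to 1607 ± 124 (-0.97), Ets1 by 0.40 and Nfib by 0.33. Nr2f6 and Ppargc1a fell by 0.27 each, both lost once depth was a covariate (limma adjusted p = 0.0921 and 0.168). The Ppargc1a call was also lost after upper quartile rescaling (-0.17, limma adjusted p = 0.0608). Hhex, Gata4 and Gata6, factors of liver specification, were not called, with log2 fold changes of 0.01, 0.04 and 0.02.

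Among genes that these factors are known to drive, more were called higher than lower. Of 60 listed targets, 34 passed the filter, and 26 had a mean under 10, among them the plasma lipid genes Apoa2 and Apoc3. Of the 34, 23 were higher and 2 lower, or 67.6% and 5.88% beside 19.4% and 20.8% of all tested genes. Of the 34, 4 passed only through the siCasp8 group (Apoh, Fga, Tdo2 and G6pc), and without them 20 of 30 were higher and 2 lower, with log2 fold changes from -0.38 to 5.38 around a median of 0.62. This list overlaps with genes already known to rise in these libraries, so its direction is not independent support. A log2 fold change of at least 1 was found for 10 of these 30 targets, for 3 of the 41 other liver factors and for none of the 8 factors. Among all 14154 tested genes only 309 had one, whether called or not, so its absence among 8 genes does not set the factors apart.

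Albumin (Alb), a standard readout of Cebpa and Foxa action, rose from 86.4 ± 10.7 to 3626 ± 249 (log2 fold change 5.38, limma adjusted p = 4.13e-12). G6pc, the last enzyme of glucose production, rose from 3.88 ± 2.45 to 122 ± 17.0 (4.78). G6pc passed the filter only through siCasp8, and its log2 fold change ran from 3.86 to 5.07 over the 18 alternatives. Ttr, the classic Foxa and Onecut target that carries thyroid hormone, went from 2495 ± 176 to 6852 ± 178 (log2 fold change 1.46). The retinol carrier gene Rbp4 rose by 1.00, the bilirubin conjugate pump gene Abcc2 by 1.23 and the transferrin gene Trf by 0.74. A pair of lipoprotein genes moved in opposite directions: Mttp, which loads lipid onto apolipoprotein B, rose from 385 ± 27.5 to 791 ± 40.7 (1.04), and Apob fell from 26046 ± 1567 to 21951 ± 1579 (-0.25, lost after upper quartile rescaling with limma adjusted p = 0.0849). Ambp fell by 0.38. Afp, the fetal albumin relative, was 29.5 ± 7.73 and 29.5 ± 3.87.

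**Figure D5:**
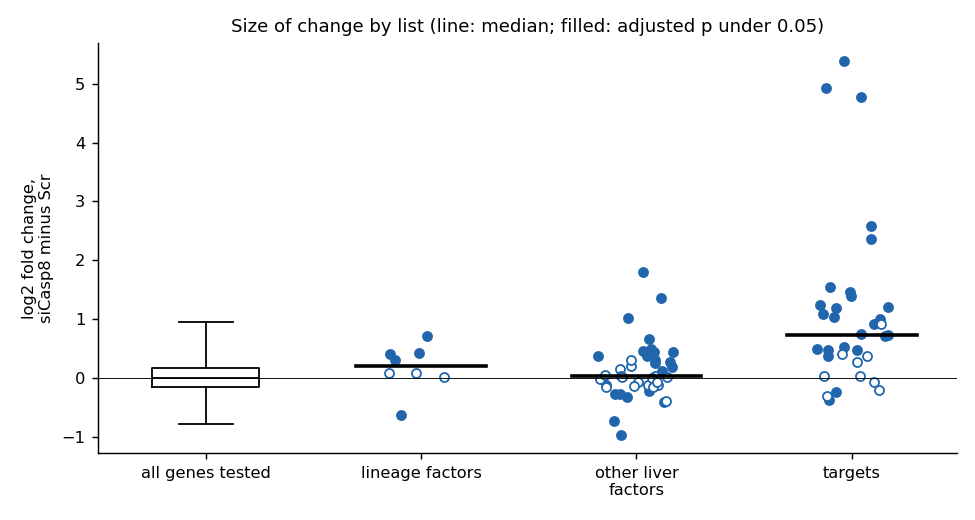
Log2 fold change of all tested genes (box for the quartiles, whiskers for the central 95 percent), the 8 lineage factors, 41 other liver factors and 34 tested targets, with the median as a black line and called genes filled. The lineage factors lie between -0.63 and 0.71, the other liver factors between -0.97 and 1.81 and the targets between -0.38 and 5.38. Of the targets drawn, 4 passed the filter only through siCasp8.

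The Alb stretch (chr5:90460620-90460869, plus strand, GRCm38.p6, directly before the RefSeq start) is shown because Alb had the largest rise of the targets. It holds a match to the C/EBP word TTGCNNAA, where N is any base, in capitals as read on the other strand. The match is of letters only, and whether C/EBP factors bind there was not tested.
Alb: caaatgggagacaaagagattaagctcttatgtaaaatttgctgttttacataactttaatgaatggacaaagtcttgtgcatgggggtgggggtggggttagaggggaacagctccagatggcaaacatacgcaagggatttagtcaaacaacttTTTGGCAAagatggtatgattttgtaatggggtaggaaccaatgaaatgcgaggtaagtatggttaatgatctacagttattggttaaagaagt

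Of 27 tested targets with a RefSeq entry, 11 held TTGCNNAA in the 250 bases before a start. This is 40.7%, beside 10.8% of all genes with an entry. The windows that held it ran from 36.0% (Afp) to 70.8% (Rbp4) G and C, most of them below the median of 52.4% over all windows. The part of base composition in this difference was not tested. The 4 targets that passed the filter only through siCasp8 were left out of the next counts. With TTGCNNAA, 6 of 10 were higher and 1 lower, and without it 8 of 13 were higher and 1 lower. As shares these are 60% and 10% with the word and 61.5% and 7.69% without it, beside 19.4% and 20.8% of all tested genes. The forkhead word was found in 3 of the 27 (Apoh, F11 and Rbp4), beside 3.54% of all genes. TATTGAT was found in 2 (G6pc and Slc2a2), beside 2.14%, and CAAAGGTCA in 1 (Pfkfb1), beside 0.485%. CAAAGTCCA, TTGCGCAA and TATCGAT were found in none of the 27. Of the targets with a match to any word, Fga, Apoh and G6pc passed the filter only through siCasp8. A match is a description of the letters and not a bound site.

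Markers of other cells were present beside the factors, several of which are also made in bile duct, gut and pancreas. The 12 cholangiocyte markers summed to 124330 to 133336 in Scr and 138006 to 145450 in siCasp8, 3 of 9 tested were higher and 4 lower (33.3% and 44.4%, beside 19.4% and 20.8% of all tested genes), and none was at 0 throughout. The osteopontin gene Spp1 made up most of that sum and rose from 89795 ± 3642 to 104055 ± 3658 (log2 fold change 0.21, lost with the depth covariate). The 10 gut and pancreas markers summed to 2984 to 3173 and 4830 to 4982, with Cdx1, Neurod1, Ptf1a and Cpa1 at 0. Vil1, which liver epithelium also makes, was nearly all of it and rose from 3026 ± 87.4 to 4861 ± 90.3 (0.68), and Lgr5 was near 15 in both groups. The 10 macrophage markers summed to 781 to 849 and 579 to 654, with 6 at 0 in every library and Csf1r (569 ± 30.1 and 347 ± 29.4) and Ptprc (134 ± 9.73 and 152 ± 15.02) the most abundant. The 10 stellate markers summed to 132 to 196 and 110 to 196, led by Col1a1 (117 ± 22.2 and 77.9 ± 23.9) and Des (12.1 ± 8.24 and 45.3 ± 22.6). The part of such cells in the factors' differences was not tested.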

How the data were processed

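Poly-A RNA from 8 AML12 cultures was analysed (4 Scr, 4 siCasp8), grouped by sample title. The authors deposited 1 normalized signal per gene symbol, made with kallisto and DESeq2 per the file's name; builds GRCh38 and GRCm38 and the tools kallisto 0.44.0, DESeq2, sleuth and bcl2fastq 2.19 are listed in the submitters' processing notes without roles. Gene summing and annotation are not given in the sources used here. A line without a symbol (0.0481% to 0.0631% of a library) was left out. Depth was estimated from the value of 1 read; 63.0% to 75.0% of low values lay within 0.1 read of a whole number, so count models were not used. The precision of each value is its SD over 4 libraries.

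Genes with a mean of at least 10 were tested with limma 3.58.1 (R 4.3.3) on log2(value + 1), with trend, two-sided, Benjamini-Hochberg over all 14154 genes across the table. Fold changes on this scale understate low genes. The script was tested on simulated data. Factors and lists were chosen with earlier results of these data known. Named genes are Casp8, the factors and relatives, the called list genes with the smallest adjusted p (6 other factors or 8 targets per direction), 2 nearest genes per factor and 2 most abundant markers per cell type; Hhex, Gata4, Gata6, Afp and genes listed at or near 0 were named after their values were seen. Some genes that this rule names are not reported here. Positions and lengths are from GENCODE (GRCm38).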

Additional observations from a re-analysis of the deposited data

Results flagged for a closer look

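In 10 of the 128 groups of 4 libraries looked at over the named genes, 1 library stood apart from the other 3 by a gap whose share of the group's range was over Dixon's 95% critical value, where chance gives about 1 in 20. Among the lineage factors, Foxa1 was 992 in siCasp8 replicate 1 against 1146 to 1174 in the other siCasp8 libraries (gap 0.849 of the range), and its log2 fold change without that library was -0.57. Cebpa was 557 in Scr replicate 2 against 488 to 498 (gap 0.860) and 700 in siCasp8 replicate 1 against 662 to 667 (gap 0.866). Its relative Hnf4g was 15.6 in siCasp8 replicate 3 against 11.9 to 12.2 (gap 0.924). Of the targets, Mttp was 852 in siCasp8 replicate 2 against 767 to 773 (gap 0.930), and Apob was 24314 in siCasp8 replicate 1 against 21035 to 21305 (gap 0.918). Of the genes with a like pattern, Swsap1 and Fkbp4 were lowest in siCasp8 replicate 2 (gaps 0.899 and 0.949), and Ppib and Sord were highest in Scr replicate 2 (gaps 0.851 and 0.842).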

How the results depend on the processing

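The 5 calls among the lineage factors (Foxa1, Foxa3, Cebpa, Onecut2 and Prox1) kept their direction and their side of the threshold under all 18 alternatives. Upper quartile rescaling gave 7 factors higher, log2 fold changes of 0.19 (Hnf4a), 0.12 (Foxa2) and 0.18 (Onecut1), 5 other liver factors lower, 1 target lower, and 4471 of all genes called higher and 1665 of all genes called lower. Quantile normalization gave 0.14 for Hnf4a and 0.13 for Onecut1, both called. The depth covariate gave 4 other liver factors lower and 1289 of all genes called higher and 1475 of all genes called lower. Leaving out 1 library gave 4 to 5 factors higher, 0.051 to 0.13 for Hnf4a, -0.0040 to 0.030 for Foxa2 and 0.059 to 0.10 for Onecut1. Signs of uncalled genes turned for Cebpg (0.067) and Lgr5 (0.081) under upper quartile rescaling, for Cebpz under upper quartile, median-of-ratios and quantile scaling (0.10, 0.0045 and 0.025), and for Hnf4g (-0.016), Prox2 (-0.11), Fkbp4 (-0.0042), Pecam1 (0.54) and Lgr5 (0.19) with the depth covariate. Without 1 library the range crossed 0 for Foxa2 and for 4 other genes named, with -0.036 to 0.023 (Cebpz), -0.016 to 0.059 (Swsap1), -0.018 to 0.022 (Fkbp4) and -0.19 to 0.19 (Lgr5). The cause was not tested.

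Same-numbered libraries correlated by 0.0785, 0.0442, 0.169 and 0.0554 in their deviations from the group means, so the numbers were not taken to pair them, though each library correlated best with its own number, a hint from the data. With the replicate block 4 factors were higher and 1 lower, and 2868 of all genes called higher and 3152 of all genes called lower. Scr libraries were mostly shallower, which limits low genes such as Hnf4g and Onecut3.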
